A study of Homo sapiens with 26 samples.

Results

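Aminoacyl-tRNA synthetases join each amino acid to its tRNA, and they therefore supply the substrate of every step of translation. Human cells hold a cytosolic set and a separate mitochondrial set, both encoded in the nucleus and translated on cytosolic ribosomes. Several cytosolic enzymes are bound in a large complex with 3 scaffold proteins, and the cytosolic phenylalanyl enzyme is built from α and β subunits in equal number. GARS1 and KARS1 each serve both compartments from a single gene.

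The 35 listed synthetases were looked up by GENCODE gene symbol among the 12325 transcripts of the deposited codon counts, and 33 were found. They were 17 of 19 cytosolic and 16 of 16 mitochondrial genes. CARS1 and VARS1 were not matched by symbol and are not analysed here. The cytosolic genes found were AARS1, EPRS1, FARSA, FARSB, GARS1, HARS1, IARS1, KARS1, LARS1, MARS1, NARS1, QARS1, RARS1, SARS1, TARS1, WARS1 and YARS1. The mitochondrial genes were AARS2, CARS2, EARS2, FARS2, HARS2, IARS2, LARS2, MARS2, NARS2, PARS2, RARS2, SARS2, TARS2, VARS2, WARS2 and YARS2. Their coding sequences (CDSs) ran from 361 codons for WARS2 to 1513 codons for EPRS1, and no stretch of 28 bases of the 31 sequences that could be compared occurred in another measured CDS.

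Huh7 is a human hepatocellular carcinoma line. In the first study, cells were given 1.5 μM or 0.3 μM of PF-06446846, a compound that stalls ribosomes on selected nascent chains, or vehicle (0.5% DMSO), for 10 or 60 min, with 3 ribo-seq libraries of each. In the second, cells were given 1.5 μM or vehicle for 60 min, and ribo-seq and mRNA-seq of poly-A RNA were each made from 2 replicates. The 18 ribo-seq libraries of the first study held 6414227 to 22224137 CDS reads. The 4 of the second held 8888459 to 13736874, and the 4 mRNA-seq libraries held 15227654 to 22036358. Of 10 listed hepatocyte markers 9 were found, without ALB, and of 6 markers of other cell types 2 were found, without COL1A1, COL3A1, VWF and PTPRC. In the vehicle libraries of 60 min in the first study the hepatocyte markers found ranged upward from APOH, at a footprint level of 475 ± 135 (SD, n = 3). The endothelial marker PECAM1 stood at 25.9 ± 11.9. The macrophage marker CD68 stood at 149 ± 27.2, below APOH but above the median of all transcripts, 47.3. A level here is the read count scaled by TMM over all 26 libraries to RPM, per 1000 codons, so that genes of different length can be compared.

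Cytosolic synthetases carried more footprints than mitochondrial ones. In the 60-min vehicle libraries of the first study the median footprint level was 254 ± 2.37 over the 17 cytosolic genes and 51.3 ± 2.18 over the 16 mitochondrial genes (SD, n = 3), a ratio of 4.96 ± 0.181. The median over all transcripts was 47.3 ± 0.170, close to that of the mitochondrial set. The cytosolic set took 0.359% ± 0.0111 of the CDS reads and the mitochondrial set 0.0651% ± 0.00114 (SD, n = 3). The same ratio of medians was 5.50 ± 0.202 in the vehicle ribo-seq libraries of the second study and 3.86 ± 0.948 in its vehicle mRNA-seq libraries (SD, n = 2).

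NARS1, which charges asparagine tRNA, had the highest footprint level in the 60-min vehicle libraries of the first study, at 563, 493 and 532 in replicates 1, 2 and 3. AARS1 followed at 488 ± 27.8, KARS1 at 462 ± 8.07 and GARS1 at 451 ± 15.1 (SD, n = 3), and the ranges of NARS1 and AARS1 overlapped. The lowest cytosolic genes were HARS1 at 126 ± 7.31 and LARS1, the leucyl enzyme of the cytosol, at 84.7 ± 2.51, and these 2 did not overlap. Among mitochondrial genes IARS2, the isoleucyl enzyme, stood apart at 260 ± 9.66, above 9 of the 17 cytosolic genes. All other mitochondrial genes lay between 19.1 ± 0.724 for VARS2 and 89.0 ± 10.4 for EARS2, the glutamyl enzyme, so that 16 of 17 cytosolic genes exceeded every mitochondrial gene but IARS2. PARS2, VARS2, AARS2 and FARS2 were the lowest 4 and rested on few reads, down to 48 reads for PARS2 in the shallowest library.

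**Figure D1:**
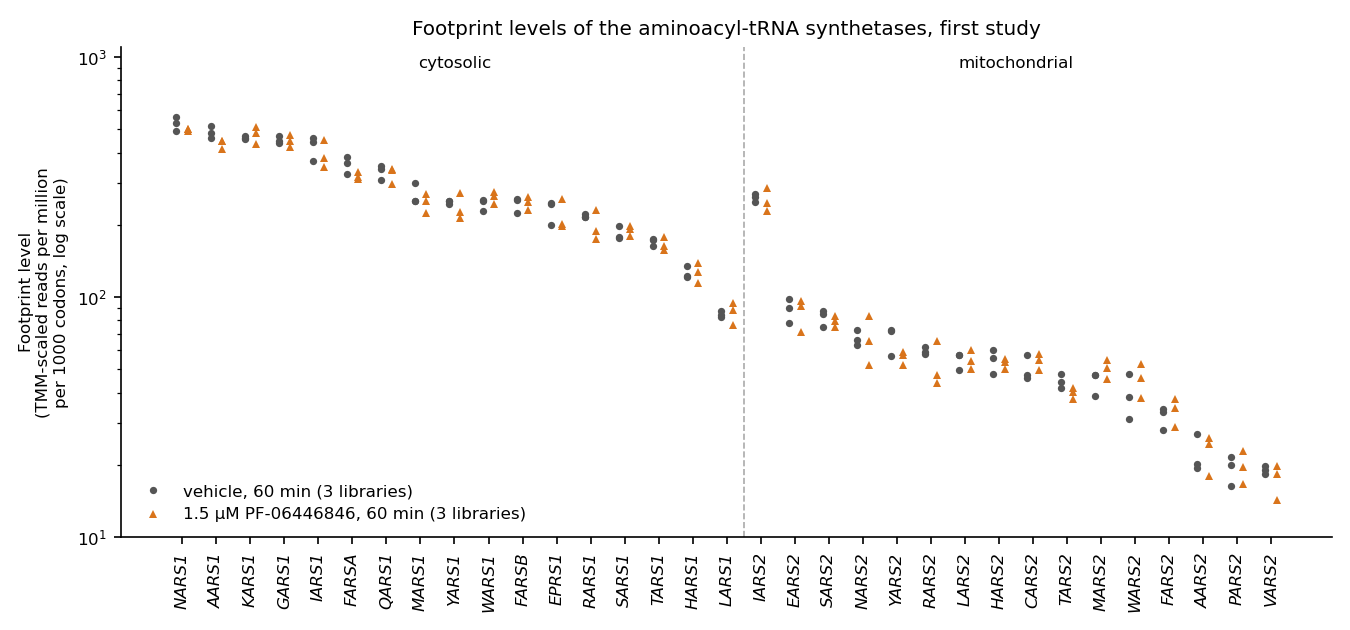
Footprint level of each synthetase (vertical axis, TMM-scaled RPM per 1000 codons, log scale) in the 60-min libraries of the first study, with a point for each of 3 vehicle (grey circles) and 3 treated (orange triangles) libraries. Cytosolic genes, left of the dashed line, lie mostly above the mitochondrial genes, IARS2 (260 ± 9.66) is the exception, and the treated points fall among or near the vehicle points.

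The next comparison asked how closely footprint levels followed mRNA levels in untreated cells. Translational efficiency (TE) is the ratio of footprints to mRNA of a gene, and its log2 was tested with edgeR against the centre of all transcripts in the vehicle libraries of the second study. Of the 33 synthetases 26 were called at an adjusted p under 0.1, and 74.6% of all 11734 tested transcripts were called, so being called is no mark of the family. Among cytosolic genes 13 of 17 had a higher TE and 0 a lower TE, and among mitochondrial genes 7 of 16 had a higher TE and 6 a lower one. The lower mitochondrial genes numbered 3 without footprint replicate 4, 4 without footprint replicate 5, 7 without mRNA replicate 4 and 5 without mRNA replicate 5, beside 6 or 7 higher. Over all tested transcripts 36.7% were called higher and 37.9% lower. The median log2 TE was 0.60 for the cytosolic set, −0.10 for the mitochondrial set and −0.03 for all transcripts. With single libraries left out the cytosolic median stayed between 0.58 and 0.63, while the mitochondrial one was −0.02 and −0.07 without footprint replicates 4 and 5, −0.19 without mRNA replicate 4 and 0.04 without mRNA replicate 5, so its sign rested on 1 library. MARS1 (−0.25) was called lower when only codons after 50 were counted, and MARS1 (−0.25) and YARS1 (−0.17) without mRNA replicate 5.

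EPRS1, which carries both the glutamyl and the prolyl enzyme on a single chain, had the highest TE of the family. Its mRNA level was 64.9 and 49.9 in vehicle replicates 4 and 5, and its footprint level was 307 and 292. The log2 TE was 2.34 (SE 0.128, adjusted p = 4.6e-07 with edgeR), at percentile 98.9 of all transcripts. NARS1 followed, with mRNA levels of 131 and 123 against footprint levels of 457 and 465, a log2 TE of 1.82 (SE 0.0903, adjusted p = 2.7e-07 with edgeR). TARS1 (threonyl, 1.62), RARS1 (arginyl, 1.43) and LARS1 (leucyl, 1.41) came next, at percentile 90.5 or above of all transcripts. AARS1, FARSB, GARS1, IARS1, HARS1, SARS1 and WARS1 were called higher with log2 TE between 0.40 and 0.71, and QARS1 at 0.19 (adjusted p = 0.0783 with edgeR). KARS1 (0.05), FARSA (−0.10), YARS1 (−0.12) and MARS1 (−0.17) were not called.

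At the other end stood VARS2, the valyl enzyme of mitochondria. Its mRNA level of 45.6 ± 7.03 was near the median of the mitochondrial set, 40.8, whereas its footprint level was 16.6 ± 1.62 (SD, n = 2), which gave a log2 TE of −1.50 (SE 0.157, adjusted p = 2.5e-05 with edgeR). The counts for VARS2 were made on a transcript of 924 codons, VARS2-211, which is not the MANE Select transcript of the gene. The transcripts counted for TARS1, LARS1, HARS1, QARS1, WARS1, SARS2 and LARS2, all called in TE, were not MANE Select either. Whether the isoform matters was not tested for any of these genes. CARS2, the mitochondrial cysteinyl enzyme, had a log2 TE of −1.03 (SE 0.113). PARS2 (−0.67), AARS2 (−0.57), SARS2 (−0.33) and RARS2 (−0.27) were also called lower. The mitochondrial genes called higher were HARS2 (0.84), YARS2 (0.77), WARS2 (0.75), MARS2 (0.74), IARS2 (0.58), NARS2 (0.56) and LARS2 (0.44). EARS2, FARS2 and TARS2 were not called.

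**Figure D2:**
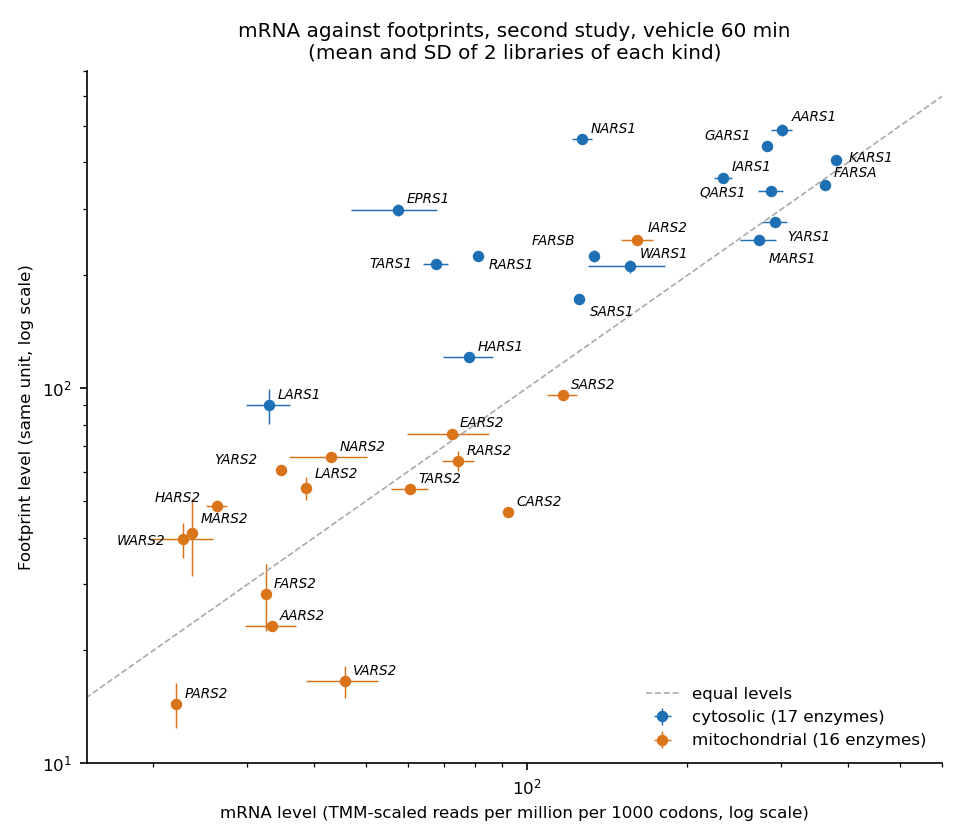
Footprint level (vertical axis) against mRNA level (horizontal axis) of each synthetase in the vehicle libraries of the second study, both in TMM-scaled RPM per 1000 codons on log scales, as mean and SD of 2 libraries. EPRS1, NARS1, TARS1, RARS1 and LARS1 lie far above the dashed line of equal levels, and VARS2 and CARS2 lie far below it.

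Footprint levels were more even than mRNA levels in the cytosolic set but not in the mitochondrial set. In vehicle cells mRNA levels of the 17 cytosolic genes spanned 11.6-fold, from LARS1 to KARS1, and footprint levels spanned 5.43-fold, from LARS1 to AARS1. For the 7 enzymes of the multi-synthetase complex (EPRS1, IARS1, KARS1, LARS1, MARS1, QARS1 and RARS1) the SD of the log2 level over genes was 1.37 for mRNA and 0.73 for footprints. With 1.5 μM the corresponding SDs were 1.36 and 0.72. For the 16 mitochondrial genes the SD was 0.88 for mRNA and 0.99 for footprints, and the span was 7.31-fold for mRNA and 17.3-fold for footprints. With 1.5 μM the mitochondrial SDs were nearly equal, 0.93 for mRNA and 0.96 for footprints. These spreads were described after the values had been seen and were not tested. The scaffold proteins of the complex were called higher in TE in 3 of 3 cases, beside 36.7% of all transcripts, with AIMP1 at a log2 TE of 1.79 (SE 0.119, adjusted p = 1.4e-06), EEF1E1 at 0.75 and AIMP2 at 0.36.

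FARSA and FARSB encode the α and β subunits of cytosolic phenylalanyl-tRNA synthetase. FARSA mRNA stood at 365 and 361 in vehicle replicates 4 and 5, and FARSB mRNA at 134 in both. FARSA footprints stood at 348 and 349, and FARSB footprints at 220 and 231. The ratio of FARSA to FARSB was thus 2.71 ± 0.0235 for mRNA and 1.55 ± 0.0544 for footprints (SD, n = 2). Over all 22 ribo-seq libraries the ratio ran from 1.15 to 1.72, and over the 4 mRNA-seq libraries from 2.43 to 2.73, with no overlap. The log2 TE was 0.71 for FARSB (SE 0.0912, adjusted p = 1.0e-04) and −0.10 for FARSA (SE 0.0840, adjusted p = 0.302, both with edgeR), and the difference between these 2 genes was itself not tested.

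**Figure D3:**
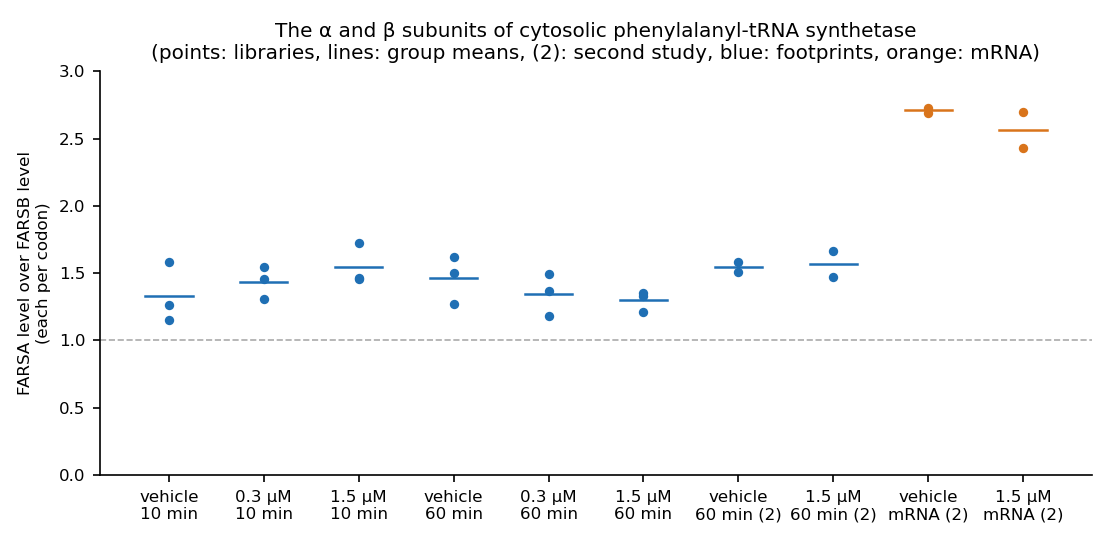
Ratio of the FARSA level to the FARSB level, each per codon, in every library (points) with group means (lines), for footprints (blue) and mRNA (orange), where (2) marks the second study. All 22 footprint ratios lie between 1.15 and 1.72, and the 4 mRNA ratios lie between 2.43 and 2.73.

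Adjacent genes give a further pair. HARS1 and HARS2, the cytosolic and mitochondrial histidyl enzymes, lie head to head on chromosome 5, with HARS1 at chr5:140673904-140691377 on the minus strand and HARS2 at chr5:140691455-140699305 on the plus strand of GRCh38, their annotated starts 78 bases apart. HARS1 mRNA stood at 78.1 ± 8.30 and HARS2 mRNA at 26.3 ± 1.17, and their footprints at 121 ± 3.40 and 48.6 ± 1.77 (SD, n = 2). Both had a higher TE, at a log2 of 0.59 and 0.84.

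Other genes of charging, amino acid supply and the stress response were read in the same fit. Of 10 accessory and editing factors 3 had a higher and 3 a lower TE. Of 19 genes found from a list that joins amino acid supply (such as ASNS and SLC7A5) with stress response regulators (such as ATF4, DDIT3 and TRIB3), 11 were higher and 6 lower. Over all tested transcripts these shares were 36.7% and 37.9%. The widest values were those of ATF4, the transcription factor that drives many synthetase genes under stress, at −2.79 (SE 0.105), and of the transporters SLC7A11 at 2.64 (SE 0.214) and SLC38A2 at 2.19 (SE 0.109). Of 6 elongation factors 4 were higher and 2 lower.

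The main question of the design was whether PF-06446846 changed the footprints of a gene. No synthetase was called. After 10 min at 1.5 μM, 0 of 33 passed an adjusted p of 0.1 with edgeR and DESeq2 called 0. An unadjusted p under 0.05 was found in 3 of 33 with edgeR, beside 17.7% of all tested transcripts. Over all 11045 tested transcripts edgeR called 0.851%, so few that 0 of 33 does not set the synthetases apart. All 33 synthetases passed the filter on low counts. Fold changes were small, with log2 values from −0.30 for TARS1 to 0.31 for FARS2, and the 95% intervals of all 33 lay within a log2 of −0.52 to 0.67. The median log2 change was −0.08 for the cytosolic set and 0.07 for the mitochondrial set, against 0.01 for all transcripts.

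TARS1, which charges threonine tRNA, was closest to the threshold after 10 min. Its footprint level was 160, 152 and 159 with 1.5 μM and 198, 208 and 172 with vehicle, so that the treated libraries lay below all vehicle libraries. The log2 change was −0.30 (SE 0.106, adjusted p = 0.196 with edgeR). LARS1 stood at 77.8, 72.3 and 77.1 against 93.3, 88.4 and 84.4 with vehicle, a log2 change of −0.23 (SE 0.102, adjusted p = 0.268 with edgeR), again without overlap. RARS1 stood at 173, 168 and 208 against 214, 236 and 207, and these groups overlapped, with a log2 change of −0.26 (SE 0.113, adjusted p = 0.260 with edgeR). In all, 7 of 33 synthetases lay below every vehicle library after 10 min (TARS1, LARS1, GARS1, IARS2, NARS2, RARS2 and YARS2), beside 11.3% of the 11045 transcripts, and 2 lay above (QARS1 and FARS2), beside 10.7%. Without vehicle replicate 3, TARS1 (−0.37) and EPRS1 (−0.32) passed, but in that setting 1656 transcripts passed in place of 94.

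After 60 min at 1.5 μM, 0 of 33 synthetases were called by edgeR or DESeq2 and 0 had an unadjusted p under 0.05, beside 0.0726% of 11021 transcripts called. These libraries were paired by replicate number, and a fit with that block called 51 transcripts in place of 8 and again 0 synthetases. The 8 became 5 and 1 without 1.5 μM replicates 1 and 3, and 0 and 4 without vehicle replicates 2 and 3. Synthetases at an unadjusted p under 0.05 then numbered 2 without 1.5 μM replicate 1 and 1 without vehicle replicate 2, with 0 called. TARS1 and LARS1 stood at log2 changes of −0.04 and 0.03. The log2 values ran from −0.26 for YARS2 to 0.20 for WARS2, and the 95% intervals of the 17 cytosolic genes all lay within −0.42 to 0.35, and those of all 33 within −0.58 to 0.64. In the second study 0 of 33 were called after 60 min by either tool, 0 with an unadjusted p under 0.05, beside 0.115% of 11263 transcripts, and the cytosolic intervals lay within −0.32 to 0.18 and all 33 within −0.77 to 0.71. The difference between 60 and 10 min in the effect of 1.5 μM was called in 0 of 33 synthetases and in 0% of 11167 transcripts, with 0 synthetases at an unadjusted p under 0.05 and 0 calls with DESeq2.

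**Figure D4:**
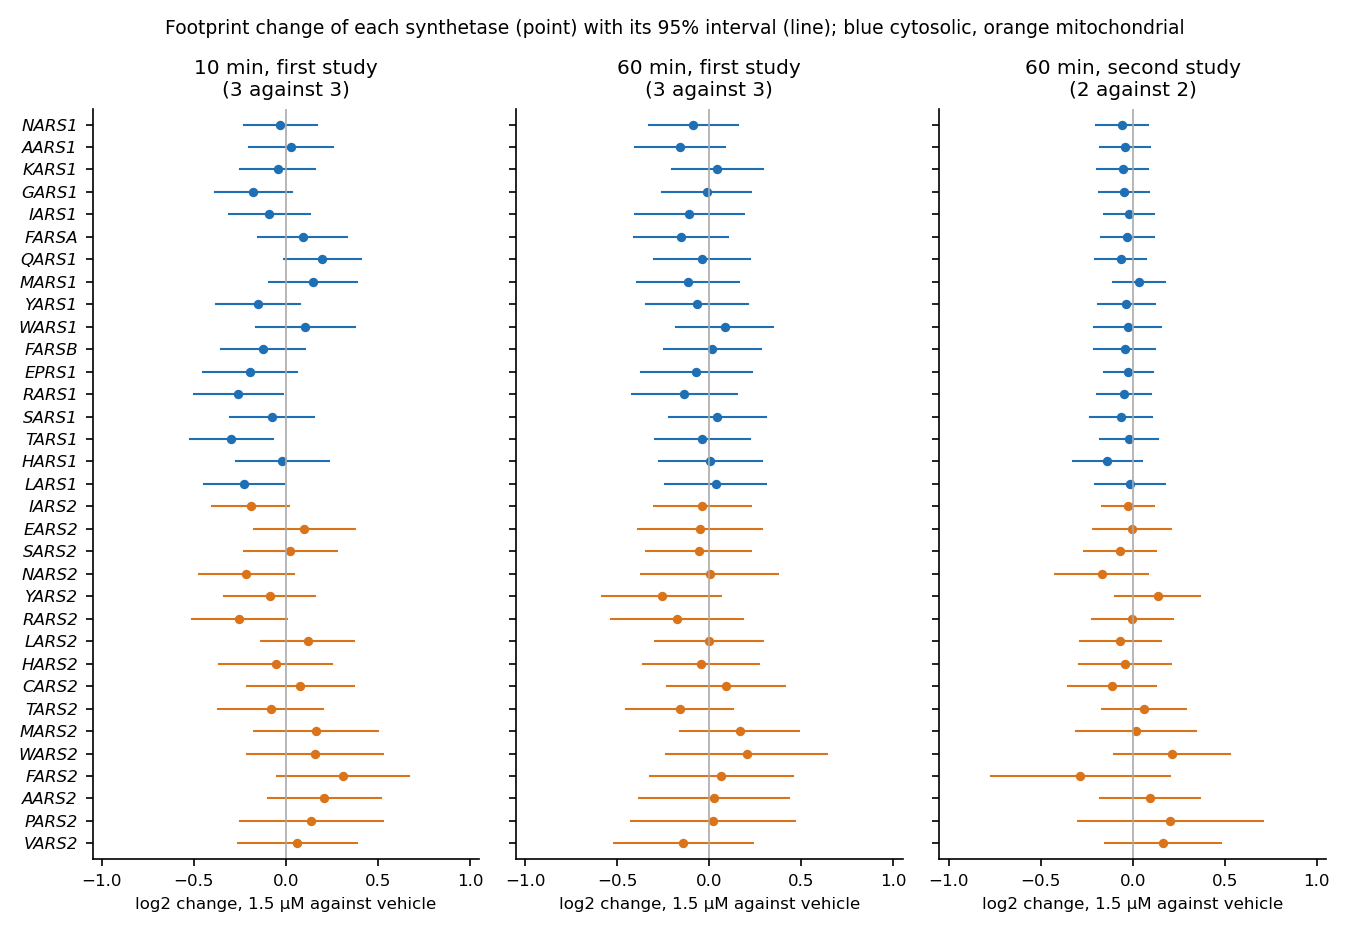
Log2 change in footprints with 1.5 μM against vehicle (horizontal axis) for each synthetase, as the edgeR estimate (point) with its 95% interval (line), cytosolic genes in blue and mitochondrial genes in orange. The points lie between −0.30 and 0.31 after 10 min, and most intervals in all 3 panels include 0.

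At 0.3 μM, 0 of 33 were called after 10 min or after 60 min by either tool, 0 with an unadjusted p under 0.05, and 0% of all tested transcripts were called at both times. These comparisons use the same vehicle libraries as those at 1.5 μM. Log2 changes lay between −0.19 and 0.16 after 10 min and between −0.24 and 0.06 after 60 min. Between vehicle cells at 60 and 10 min, 0 synthetases and 0% of 11098 transcripts were called by edgeR, and DESeq2 called 0 synthetases. The only unadjusted p under 0.05 there was that of YARS1, the tyrosyl enzyme, which stood at 252, 245 and 252 after 60 min and 311, 317 and 272 after 10 min, without overlap (log2 change −0.27, SE 0.110, adjusted p = 0.713 with edgeR). It was the 1 synthetase below every 10-min library, beside 6.2% of transcripts, and 2 lay above (KARS1 and VARS2), beside 6.35%. In mRNA-seq 0 synthetases and 0% of 11812 transcripts were called with 1.5 μM, with 0 at an unadjusted p under 0.05. The change in TE with 1.5 μM was called in 0 synthetases and in 0.0339% of 11799 transcripts, with 0 at an unadjusted p under 0.05, and DESeq2 called 0 in both. With the replicate number as a block, 13 transcripts in place of 4 and again 0 synthetases changed in TE. That block groups the vehicle and treated samples of a number. The pairing of ribo-seq with mRNA-seq of the same sample was not modelled for the change in TE. The 4 became 128 without mRNA vehicle replicate 4, stayed at 4 without mRNA vehicle replicate 5 and fell to 1 without any other single library, with 0 synthetases called and 0 to 3 at an unadjusted p under 0.05. In these bulk libraries fewer cells and less RNA per cell cannot be told apart. Of the scaffold, accessory, supply and stress response, and elongation lists, 0 genes were called in any of these comparisons.

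The distribution of reads along each synthetase was compared as well. The share of CDS reads at codons 1 to 50 was computed for the 32 synthetases with at least 100 reads in every library of the 10-min comparison. With 1.5 μM it was higher on average in 22 of 32, beside 72.0% of all transcripts, and 8 of 32 lay above every vehicle library, beside 26.4% of 6855 transcripts. In the opposite direction WARS2 alone lay below every vehicle library, beside 3.14% of transcripts. The mean went from 3.81% ± 0.506 to 5.90% ± 0.453 in FARSA, from 6.68% ± 0.804 to 9.42% ± 1.42 in FARSB and from 1.34% ± 0.169 to 2.37% ± 0.225 in GARS1 (SD, n = 3). The others above all vehicle libraries were AARS1, TARS1, EARS2, NARS2 and TARS2. The smallest two-sided exact permutation p that 3 against 3 libraries allow is 0.1, and no synthetase had an adjusted p under 0.356. The median difference was 0.488 percentage points, against 1.04 over all transcripts. It moved with single libraries, to 0.273, 0.234 and 0.920 without 1.5 μM replicate 1, 2 or 3, and to 0.763, 0.920 and 0.690 without vehicle replicate 1, 2 or 3. After 60 min the share was higher in 11 of 30, beside 49.7% of all transcripts, with 2 above every vehicle library beside 5.75% of transcripts, and 0 below, beside 3.87%. At 0.3 μM, EPRS1 alone lay above and WARS2 alone below after 10 min, beside 4.18% and 2.64% of transcripts, and AARS2 alone lay above and none below after 60 min, beside 3.99% and 2.59%. The place of AARS2 rested on very few reads, since its share was 0.897% ± 0.817 (SD, n = 3) of 123, 275 and 250 reads in these vehicle libraries. In the second study the share was higher in 24 of 32, beside 55.3% of all transcripts, with 8 above and 3 below both vehicle libraries, beside 19.5% and 12.8% of transcripts. The 3 below were NARS1, SARS1 and AARS1, and AARS1 had lain above every vehicle library in the first study after 10 and 60 min. Of the synthetases above after 10 min, FARSB and NARS2 were above again.

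Dmax is the largest gap along a CDS by which the cumulative read curve of treated libraries lies above that of vehicle libraries. Gaps in the opposite direction, with reads moved toward the 3ʹ end, are not measured by it. Dmax was divided by its root mean square over bins of 300 transcripts of similar read count, and this quotient is called the Z-score here. It reached 2 in 0 of 33 synthetases after 10 min, beside 3.56% of 11422 transcripts, and in 0 of 33 after 60 min, beside 2.72% of 11442. The highest were FARS2 at 1.33 after 10 min and AARS2 at 1.76 after 60 min. In the second study 1 of 33 reached it, HARS2 at 2.27, beside 2.27% of 11405 transcripts. Its gap was 0.133 of the reads at codon 258, and its reads 3ʹ to that codon had a log2 change of −0.39 (SE 0.155, adjusted p = 1.00 with edgeR). A Z-score of 2 or more together with fewer 3ʹ reads at an FDR of 0.1 was found in 0 of 33 synthetases in each comparison, beside 1.52% (10 min), 0.201% (60 min) and 0.298% (second study) of transcripts. After 60 min in the first study HARS2 had a Z-score of 1.44, with the largest gap at codon 154.

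Footprints gathered at single codons in these CDSs. In the pooled vehicle libraries of the first study, each synthetase was scanned outside its first and last 15 codons for the codon with the highest density relative to the mean of its CDS. The highest values were 18.7 at codon 101 of IARS2, 12.6 at codon 201 of KARS1, 12.5 at codon 224 of QARS1, 12.3 at codon 584 of AARS2, 11.4 at codon 249 of VARS2 and 10.3 at codon 543 of RARS1. The peaks of AARS2 and VARS2 rested on 18 and 14 reads, and VARS2 had no read at that codon in 14 of 22 ribo-seq libraries. The other 4 are shown as the sequence around the codon, 5ʹ to 3ʹ from the GENCODE transcripts, with the codon placed in the ribosomal P-site by the read position in capitals.
IARS2: tattcatggcaaAGAgaaagaaaagta
KARS1: agcatcattccgTATgagatcacactg
QARS1: ttccacaagcctGGTgagaactacaag
RARS1: actagaatcaggTCTattgcacgtctg
In GRCh38 these codons lie in coding exons, at chr1:220096137-220096139 on the plus strand for IARS2, chr16:75635978-75635980 on the minus strand for KARS1 and chr5:168517816-168517818 on the plus strand for RARS1. The QARS1 codon is split by an intron, and its outer bases are at chr3:49101704-49101828 on the minus strand. In IARS2, KARS1 and QARS1 the codon after the capitals begins with GA.

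The height of these peaks varied between libraries. The QARS1 peak was present in all 22 ribo-seq libraries, from 5.23 to 19.7 times the CDS mean, with a median of 10.3. The IARS2 peak ran from 4.79 to 33.8, and in vehicle libraries it was 18.3 to 33.7 after 10 min and 6.38 to 8.44 after 60 min. In the 60-min vehicle libraries the mean was 7.35 for IARS2, below KARS1 at 13.2, RARS1 at 12.6 and QARS1 at 10.3. The order of the pooled peaks therefore did not hold at each time. The KARS1 peak ran from 1.85 to 27.6 and that of RARS1 from 1.11 to 15.2. In the 4 mRNA-seq libraries the relative density at the same codons did not exceed 0.273 for IARS2, 1.36 for KARS1, 1.49 for QARS1 and 2.58 for RARS1. In the vehicle libraries of the second study the same codon was again the highest in 6 of 33 synthetases, IARS2 and QARS1 among them, and it was above 2 times the CDS mean in 27 of 33. With 1.5 μM, pooled over both times, it was above 2 in 31 of 33. Over the 8658 transcripts of at least 100 codons with at least 1 vehicle read per codon, these shares were 22.4%, 81.6% and 97.4%, so the recurrence of such peaks is no mark of the family.

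The 5ʹ end of GARS1 was examined after its profile had been seen. The gene makes a mitochondrial and a cytosolic form of glycyl-tRNA synthetase, and the measured CDS of 740 codons includes the region upstream of the second in-frame ATG. The sites are shown with the named codon in capitals.
GARS1 first ATG, codon 1: ATGccctctccgcgt
GARS1 codon 9: cgtccagtgctgCTTagaggtgctcgc
GARS1 second ATG, codon 55: tcccggagcagcATGgacggcgcgggg
They lie in the coding part of exon sequence at chr7:30594922-30594924, chr7:30594946-30594948 and chr7:30595084-30595086 on the plus strand of GRCh38. In the 60-min vehicle libraries of the first study the read density over the 54 codons before the second ATG was 38.2%, 22.2% and 31.0% of that downstream. Codon 9 alone held 228 of the 406 reads of these 54 codons in the pooled vehicle libraries of that study, and without it the density was 12.1% ± 1.02 of that downstream (SD, n = 3). With codon 9 included, the density in the vehicle libraries of the second study was 26.5% ± 5.86 of that downstream for footprints and 94.8% ± 17.8 for mRNA (SD, n = 2). Without it these values were 15.6% ± 0.0989 and 95.8% ± 18.9. GARS1 was 6th from the lowest of the 33 synthetases in this ratio in the 60-min vehicle libraries, and 3rd when the highest codon of each was left out. In the 10-min vehicle libraries GARS1 stood at 17.7% ± 2.34 (SD, n = 3). WARS2 was the lowest in the 60-min vehicle libraries at 11.3% ± 2.26, but it stood at 58.6% ± 22.7 in the 10-min vehicle libraries and at 72.4% ± 2.29 in the second study. VARS2 was the highest at 242% ± 98.1 after 60 min, beside a median of 55.2%, and stood at 174% ± 4.71 in the second study. The paper reports that reads near the start of CDSs were depleted in general, with or without compound. In the 60-min vehicle libraries codons 1 to 50 held 2.25% ± 0.558 of GARS1 reads (740 codons). They held 1.63% ± 0.138 in QARS1 (765 codons) and 1.56% ± 0.293 in RARS1 (661 codons) (SD, n = 3). The median was 4.35% over 30 synthetases. Whether GARS1 differs from the general depletion was not tested.

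**Figure D5:**
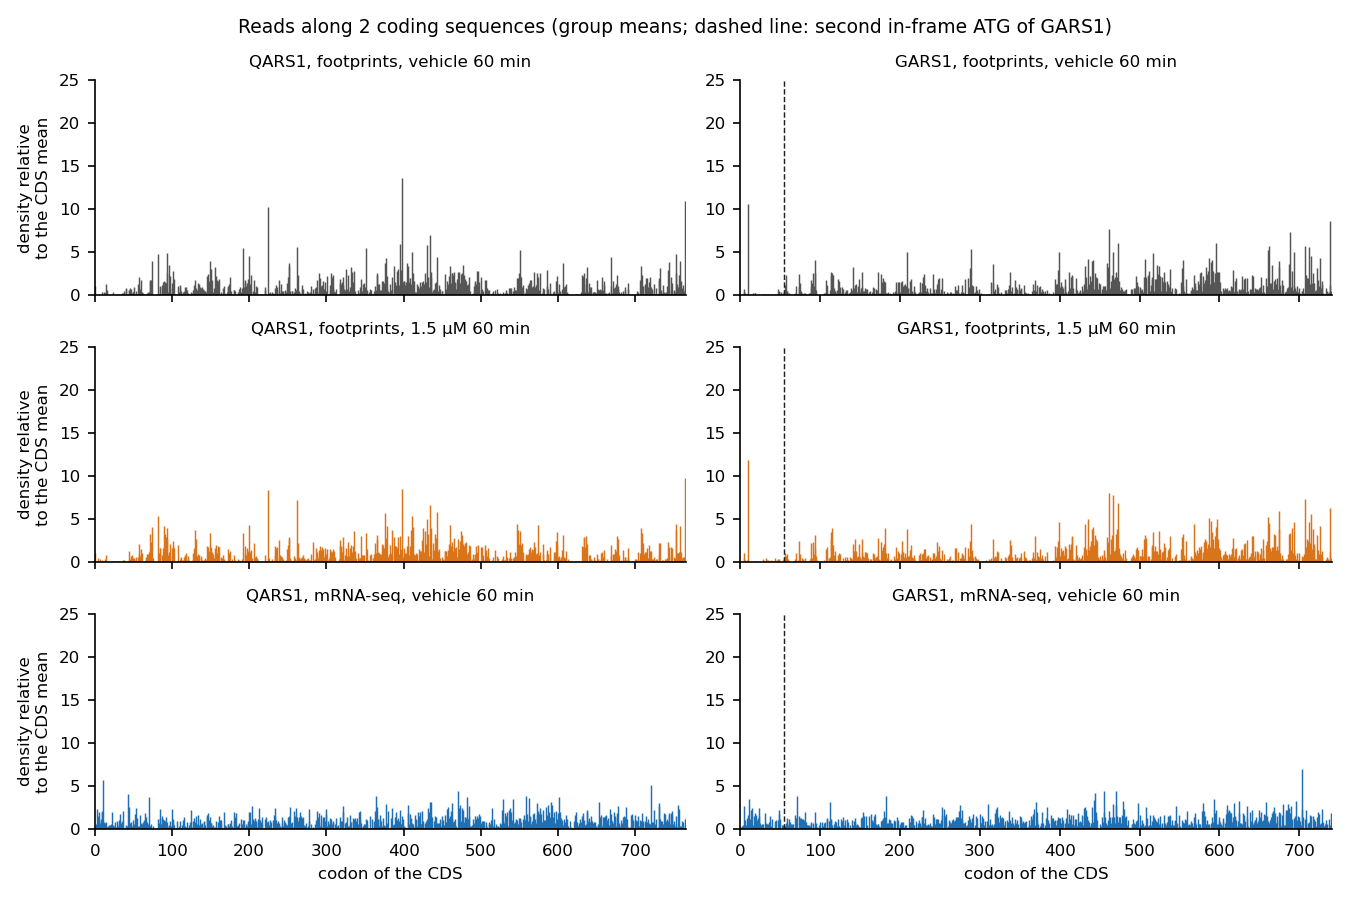
Reads per codon divided by the CDS mean (vertical axis) along QARS1 (left) and GARS1 (right), as group means of the 60-min vehicle and 1.5 μM footprints of the first study (3 libraries each) and of vehicle mRNA-seq (2 libraries). Codon 224 of QARS1 stands out in both footprint profiles and not in mRNA-seq, a codon further 3ʹ is higher still in these 60-min vehicle libraries, and in GARS1 footprints are sparse before the second ATG (dashed line) apart from codon 9, where mRNA reads are not.

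Ribosomes at the end of the CDS also differed between synthetases. At the last codon before the stop, the median relative density over the 31 synthetases whose CDS length matched GENCODE was 7.81 in the 60-min vehicle libraries of the first study. EARS2 was highest at 33.6 ± 28.5, but FARSA, at 24.9 ± 2.35, varied less between libraries (SD, n = 3). TARS1 and VARS2 had no read at that codon in these libraries, and MARS1 was at 0.370 ± 0.332. For VARS2 this says little, since it held only 113, 253 and 160 reads over its 924 codons there. TARS1 held 774, 1809 and 1117 reads over 724 codons. In the second study FARSA stood at 21.3 ± 1.81 and MARS1 at 0.884 ± 0.00358, whereas TARS1 stood at 2.99 ± 0.863 (SD, n = 2). In vehicle mRNA-seq the median was 0.674.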

How the data were processed

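Ribo-seq and mRNA-seq reads were trimmed, cleared of rRNA and aligned by the authors with Bowtie 1.1.2 to 1 isoform per gene (picked by kallisto 0.42.5, GRCh38). They assigned each read to a codon by an offset of 14 nt and deposited the read counts per codon without normalization. Tool versions are from the submitters' processing notes. Counts were summed per CDS and tested with edgeR 4.0.16 (R 4.3.3; filterByExpr, TMM and quasi-likelihood F-tests). Each fit held the groups it compared, with Benjamini-Hochberg adjustment over all tested transcripts and an FDR of 0.1. DESeq2 1.42.0 was an alternative. Dmax and its Z-score (Dmax over the root mean square of the bin) were computed as in the authors' scripts, with Python 3.11.15. Their methods text words the Z-score as SDs from the bin mean, which was run as an alternative. The code was tested on simulated data. Symbols and sequences came from GENCODE release 44. All members found are named, together with genes of the fixed lists past the threshold, at most 4 per comparison by size of change, members with a Dmax Z-score of 2 or more, and the 6 highest footprint codons. EEF1E1 and AIMP2 were named outside this rule, after their values were seen, to complete the 3 scaffold proteins. Members and lists were chosen with earlier results of these data known. Intervals are 95% intervals of the edgeR estimates. Replicate numbers were tested for pairing by correlating, between groups, how libraries with the same number deviate from the group mean. The correlations were 0.0736 to 0.206 between 1.5 μM and vehicle after 10 min and 0.367 to 0.504 after 60 min. Between 0.3 μM and vehicle after 10 min they were 0.175, 0.135 and 0.499 for replicates 1, 2 and 3. Replicate 3 also stood at 0.464 between vehicle cells at 60 and 10 min. In the second study they were 0.223 for ribo-seq and 0.0803 for mRNA-seq, with 1.5 μM against vehicle. Only the libraries of 60 min were taken as paired, a division by time that these values follow only in part. After 10 min the replicate block nevertheless raised the calls over all transcripts from 94 to 1165, so the low correlations do not show that a shared replicate effect is absent there.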

Additional observations from a re-analysis of the deposited data

How the results depend on the processing

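Across 10 comparisons, the number of synthetases called stayed at 0 in 9 of them with DESeq2, with edgeR on DESeq2 size factors, without the low-count filter, at an FDR of 0.05, on codons after 50, on CDSs without their first and last 15 codons, and with the replicate number as a block. Leaving out single libraries gave 0 to 2 calls after 10 min at 1.5 μM, the 2 without vehicle replicate 3, and 0 in the other 8. The calls in vehicle TE were 26 with the replicate block, which pairs footprints and mRNA of the same sample, and 22 to 27 with a library left out, where the lone library is assumed to vary like the others. Of the 26 calls 21 held in every alternative, and MARS2, PARS2, QARS1, RARS2 and SARS2 were lost in at least 1. EARS2, not called, moved from a log2 TE of 0.02 to −0.14 without mRNA replicate 4 and to 0.21 without mRNA replicate 5. Z-scores taken as SDs from the bin mean gave the same number of synthetases past 2, 0, 0 and 1. HARS2 did not reach a Z-score of 3, and leaving out libraries gave 0 to 1 synthetases past 2 in the second study, 0 without 1.5 μM replicate 4. The median rise in the share of codons 1 to 50 after 10 min was 0.234 to 0.920 percentage points with a library left out. Over all transcripts the calls after 10 min at 1.5 μM went from 94 to 195 with codons after 50, 232 without the end codons, 519 with DESeq2, 1165 with the block and 9 to 1656 with a library left out. In the second study footprint calls went from 13 to 29 with codons after 50, 129 with the block and 10 to 129 with a library left out. Between vehicle times they went from 0 to 43 with DESeq2 and 7 with the block. After 60 min at 1.5 μM they went from 8 to 17 with DESeq2, 19 with codons after 50 and 0 to 8 with a library left out, and for the change in TE from 4 to 11, 15 and 1 to 128. The causes were not tested. The median SE after 10 min was 0.134 for mitochondrial and 0.106 for cytosolic genes, and how far depth sets it was not tested.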

Other observations

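The codons that follow the peaks were examined after the peaks had been seen. In 20 of 31 synthetases the codon after the highest footprint codon begins with GA (GAA and GAG for glutamate, GAC and GAT for aspartate), as do 12.9% of all their codons outside the first and last 15. Over all such positions in the 31 synthetases the mean relative density was 1.68 ± 0.0568 where the next codon begins with GA and 0.900 ± 0.00645 elsewhere, in the 60-min vehicle libraries of the first study (SD, n = 3). In the vehicle libraries of the second study these values were 1.82 ± 0.00163 and 0.870 ± 0.00471 (SD, n = 2). Where, in addition, the codon before the P-site begins with CC (proline), the density was 2.03 ± 0.289 in the 60-min vehicle libraries and 3.01 ± 0.33 in vehicle cells of the second study. In vehicle mRNA-seq it was 0.965 ± 0.0698 before a GA codon and 1.30 ± 0.255 where the CC codon also preceded (SD, n = 2). The same pattern was seen in 7601 other transcripts, at 1.69 ± 0.0496 before a GA codon after 60 min with vehicle and 1.78 ± 0.0779 in study 2, so these densities do not set the synthetases apart. The count of 20 of 31 highest codons was not set beside that of other transcripts.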
